A study of Mus musculus with 17 samples.

Results

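Alveolar epithelial type 2 (AT2) cells were sorted by flow cytometry from naive C57BL/6J mice aged 2 months. The mice had received ISRIB (4 libraries) or vehicle (4 libraries) 24 h earlier. All 8 libraries were made with poly(A) selection from 3 ng of RNA. They are the 8 poly(A) libraries among the 17 of the series and were chosen by their labels alone. The vehicle libraries are titled as saline, and no library of either group came from an injured lung. The labels give neither the dose of ISRIB nor the route, and they do not say whether each library came from its own mouse. The p-values therefore measure the spread between these libraries, which may be partly technical. Libraries are named vehicle 1 to 4 and ISRIB 1 to 4 after the replicate numbers of the labels.

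AT2 cells are the cuboidal cells of the alveolus that make, store and secrete pulmonary surfactant, and they act as progenitors of the flat alveolar type 1 cells. Their secretory load makes protein folding in the endoplasmic reticulum (ER) a constant task. In the integrated stress response, kinases that sense ER stress, amino acid shortage, viral RNA or haem shortage phosphorylate the initiation factor eIF2. Phosphorylated eIF2 blocks its own exchange factor eIF2B, which lowers translation in general and raises that of a few mRNAs such as the one for the transcription factor ATF4. ISRIB binds eIF2B, holds its subunits together and keeps it active in the presence of phosphorylated eIF2. The comparison asked what ISRIB changed in the mRNA of AT2 cells that had not been injured.

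Depth was 10493574 to 15727139 counts a library, spread over 16833 to 17675 detected genes. All 25 AT2 identity genes on the list used here were measured, and together they took 249024 to 252504 CPM (counts scaled to a common library size). Of the markers of other cells, most were low. Of 14 lymphocyte markers 10 were at 0 in every library, among them Cd3e, Cd4, Cd8a and Ms4a1, as were C1qa and Fcgr1 of macrophages. The 14 summed to 18.5 to 20.8 CPM in vehicle and 15.8 to 17.8 CPM in ISRIB libraries. Only Cd79b among them had enough counts to be tested. Every ISRIB library lay below every vehicle library for it (log2 fold change -0.27), but it did not pass the main test given below. The 8 neutrophil markers summed to at most 0.738 CPM and the 12 endothelial markers to 49.2 to 75.1 CPM. The 20 macrophage markers, of which 7 were tested, summed to 2002 to 2388 CPM in vehicle and 2051 to 4027 CPM in ISRIB libraries, most of it Lyz1, which AT2 cells also make. Airway epithelial markers stood at 3999.7 to 4473 CPM in vehicle and 2595 to 4367 CPM in ISRIB libraries, most of it the club cell gene Scgb1a1.

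Replicates differed by more than counting error, and the ISRIB libraries fell into pairs. Chi-squared per degree of freedom between 2 libraries, which is 1 for counting error alone, was 3.53 between ISRIB 1 and 3 and 4.41 between ISRIB 2 and 4. It was 7.86 to 9.07 for the other ISRIB pairs and 3.69 to 5.835 between vehicle libraries. The first principal component, with 23.2% of the variance, placed ISRIB 1 and 3 at 1.59 and 3.15, ISRIB 2 and 4 at 15.3 and 21.2, and the vehicle libraries at -14.7 to -6.88. Some gene groups differ by these pairs, and the values without either are given beside them. The airway gene Scgb1a1 also split by these pairs, at 3566 and 3476 CPM in ISRIB 1 and 3 and at 2742 and 1956 CPM in ISRIB 2 and 4. The part of airway cells in the results was not tested.

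The response was broad and shallow. Of 12054 genes tested, 265 (2.20%) had an adjusted p under 0.05 in the quasi-likelihood test of edgeR and are called changed. Of these, 133 (1.10%) were higher and 132 (1.10%) lower after ISRIB. An unadjusted p under 0.05 in the same test was found for 1934 of the 12054 genes. The calls and unadjusted p counts of each gene list below are to be read against these shares. The median absolute log2 fold change was 0.38 among called genes and 0.10 among all genes tested. Only 48 called genes changed by more than 1.5-fold, 27 up and 21 down, and 10 changed by more than 2-fold. The called genes were well expressed, with a median of 55.1 CPM against 21.9 CPM for all genes tested. In 239 of the 265, the ISRIB and vehicle libraries did not overlap. Over all genes tested, 8.65% had groups that did not overlap, 4.26% with the ISRIB libraries above and 4.39% with them below. The number of calls fell to 86 without vehicle 1 and to 102 without vehicle 2, and was 159 without ISRIB 4. It was 151 without ISRIB 2 and 4 and 478 without ISRIB 1 and 3.

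**Figure D1:**
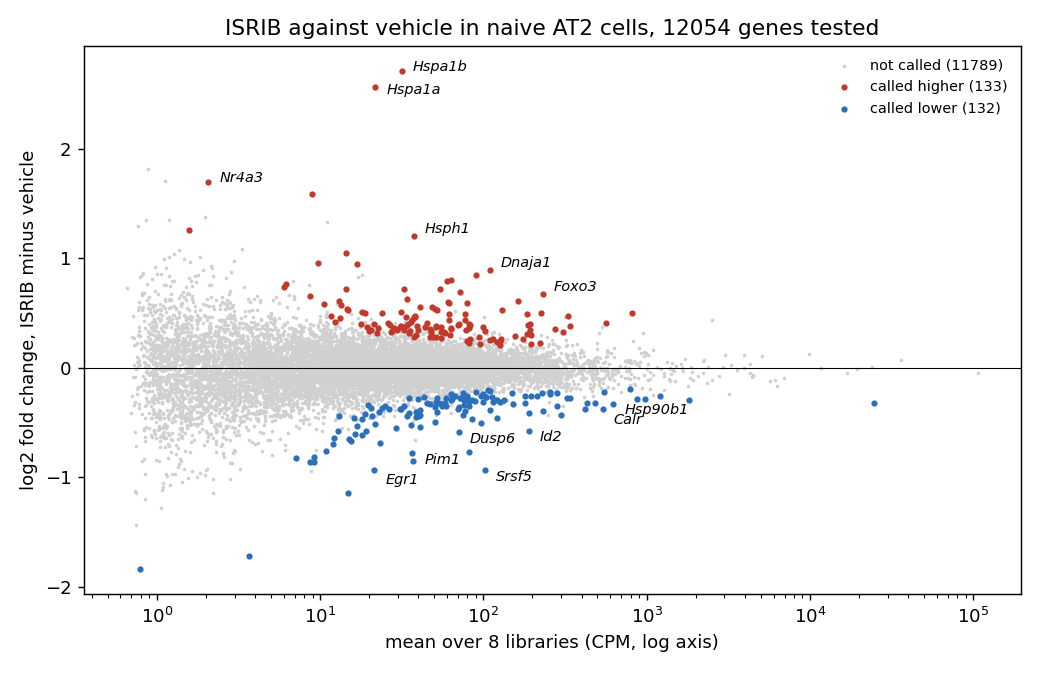
Log2 fold change (ISRIB minus vehicle) of each of the 12054 genes tested, against its mean level over the 8 libraries in CPM on a log axis. Red and blue points are the 133 genes called higher and the 132 called lower; 48 of them lie beyond 1.5-fold, and the heat shock genes Hspa1a and Hspa1b stand highest.

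No gene for the target of ISRIB or for the kinases above it passed the main test. The 8 genes of the eIF2 and eIF2B subunits had a median log2 fold change of 0.036, and 0 were called by edgeR or DESeq2, with 1 at an unadjusted p under 0.05. Eif2b4, which encodes the delta subunit that forms part of the ISRIB site, was measured at 20.9, 18, 20.9 and 17.1 CPM in vehicle 1 to 4 and 21.9, 27.2, 23.5 and 23.7 CPM in ISRIB 1 to 4 (edgeR adjusted p 0.0929). All ISRIB libraries stood above all vehicle libraries for this gene, but the difference did not pass the main test. It passed with no filter on low counts (adjusted p 0.0403). Eif2b5, the catalytic subunit, stood at 55 ± 3.34 and 51.4 ± 3.88 CPM (mean ± SD, n = 4 each, adjusted p 0.531), and Eif2s1, the subunit of eIF2 that is phosphorylated, at 29.5 ± 1.62 and 32.7 ± 2.33 CPM (0.347). A list of 8 genes held the eIF2 kinases, the phosphatase subunits that reverse them, and Dnajc3, which is also counted among the ER chaperones below. Of the 8, 0 were called by either tool, with 2 at an unadjusted p under 0.05, Dnajc3 and Eif2ak1. For Eif2ak3, the ER stress kinase PERK, the log2 fold change was -0.15 (SE 0.075, adjusted p 0.347). It was, for the stress-induced phosphatase subunit Ppp1r15a, 0.21 (SE 0.11, adjusted p 0.3396).

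Downstream of eIF2, no gene on the list of ATF4, CHOP and effectors used here passed the main test, although most had higher values. Of the 18 tested genes on it, 17 had higher values after ISRIB. Amino acid enzymes, many of which ATF4 is known to induce, and amino acid transporters are on other lists given below. There Psat1 and Slc1a5 were called lower and Slc3a2 higher. Cth is on this list and on that of the enzymes. By edgeR 0 of the 18 were called, with 8 at an unadjusted p under 0.05. By DESeq2 3 were called, Atf4 (adjusted p 0.0285), Atf3 (0.0283) and Cth (0.0293). With no filter on low counts 5 were called, Atf4 (0.00458), Atf3 (3.64e-05), Cebpb (0.00163), Nupr1 (0.00209) and Cth (0.00128). That fit also called genes whose groups overlapped and whose ISRIB libraries split by pairs, such as Lamb1 (1.26e-20) and Lyz1 (1.97e-12). Its p-values are therefore a weak guide to the spread between libraries. Their median log2 fold change was 0.23, against a median of -1.0e-04 over all genes tested. The mean score of this list (mean log2 CPM relative to the vehicle mean) was -0.047 to 0.071 in vehicle libraries and 0.14 to 0.33 in ISRIB libraries, without overlap. Atf4 itself was measured at 68.3, 65.1, 73.4 and 81.9 CPM in vehicle and 80.1, 83.8, 94.8 and 89.3 CPM in ISRIB libraries, a log2 fold change of 0.27 (SE 0.073) with an adjusted p of 0.06896. Only ISRIB 1 lay below the highest vehicle library. Atf3, another stress-induced factor of this family, stood at 7.01, 6.603, 4.72 and 6.99 and 7.53, 7.37, 11.5 and 16.5 CPM (adjusted p 0.096), with ISRIB 3 and 4 the highest. Cebpb (0.33, adjusted p 0.0958), Nupr1 (0.26, 0.112) and Ddit3, which encodes CHOP (0.37, 0.235), had positive log2 fold changes that did not pass either. Atf4 passed without vehicle 4 (adjusted p 0.0212) or ISRIB 1 (0.0451), Atf3 without ISRIB 1 (0.0451) or ISRIB 2 (0.0496), and Cebpb without ISRIB 4 (0.00982). The C/EBP-ATF response element TGATGNAA, searched on both strands of RefSeq promoter windows, was found for 6 of the 14 members with a window (Atf3, Chac1, Jdp2, Nupr1, Trib3 and Vldlr) and for 2.65% of all tested genes with one.

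Among the amino acid enzymes, many of which ATF4 is known to induce, 1 gene fell. Of 15 tested genes of serine, asparagine, proline and one-carbon synthesis, 11 had lower values and 4 higher ones, 1 was called lower and none higher (median log2 fold change -0.11). Psat1, the aminotransferase of serine synthesis, fell from 12.5, 11.5, 9.64 and 13.1 CPM in vehicle to 6.896, 5.37, 8.23 and 5.88 CPM in ISRIB libraries (-0.82, SE 0.15, adjusted p 0.00945). It was lower in 4 of 4 ISRIB libraries than in any vehicle library, and the call held without each of the 8 libraries, but not without ISRIB 2 and 4 together (0.0715). Asparagine synthetase, Asns, stood at 13.6, 15.7, 15.2 and 17.5 and 11.4, 11.1, 12.7 and 12.3 CPM (-0.39, adjusted p 0.0652). The mitochondrial folate enzyme Mthfd2 stood at 4.03, 2.44, 2.69 and 2.62 and 1.21, 1.04, 2.06 and 1.58 CPM (-1.01, 0.0661). Both had groups that did not overlap and missed the threshold of the main test. Asns passed under DESeq2 (adjusted p 0.0492) and with no filter on low counts (0.0343), and Mthfd2 passed with no filter (0.0180). The opposite direction was seen for Cth, which makes cysteine, at 31.01 ± 3.74 and 39.7 ± 4.999 CPM (0.36, 0.0721). Cth passed without vehicle 4 (0.0417) or ISRIB 2 (0.0207), under DESeq2 (0.0293) and with no filter on low counts (0.00128). The median of this list was -0.23 without ISRIB 2 and 4 and -0.048 without ISRIB 1 and 3. The enzyme list had 3 calls by DESeq2 and 4 with no filter on low counts, Cth among them. Among 16 amino acid transporters 2 were called, in opposite directions, against 1.10% of all genes in each. Slc3a2, the heavy chain of several exchangers, rose from 161, 170.3, 174 and 180 to 226, 185, 231 and 229 CPM (0.35, adjusted p 0.0137), with ISRIB 2 the lowest of its group. Slc1a5, a glutamine transporter, fell from 134, 155, 143 and 130.2 to 112, 121, 105 and 115 CPM (-0.31, 0.0147). The Slc3a2 call was lost without vehicle 1 (adjusted p 0.0566) and the Slc1a5 call without vehicle 2 (adjusted p 0.0582). Both were lost without ISRIB 1 and 3 (0.0641 and 0.0725). Of 20 cytosolic aminoacyl-tRNA synthetase genes 0 were called by edgeR or DESeq2, with 2 at an unadjusted p under 0.05 and log2 fold changes between -0.19 and 0.11.

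**Figure D2:**
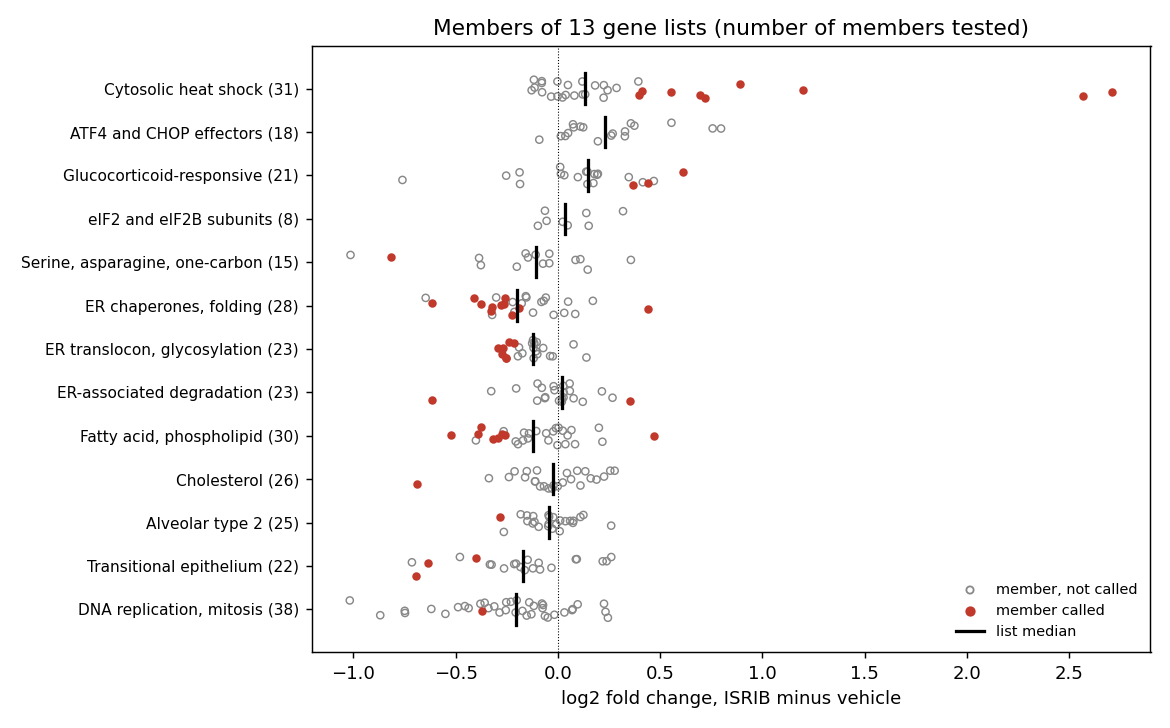
Log2 fold change (ISRIB minus vehicle) of each tested member of 13 gene lists, with called members filled in red and the list median as a black bar. The heat shock list has called members on the right alone, and the ER chaperone list has 10 called members on the left and 1 on the right.

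The largest group of called genes encodes the protein folding and entry machinery of the ER, and it was lower after ISRIB. Of 28 tested ER chaperones and folding enzymes, 23 had lower values, 10 were called lower and 1 higher, against 1.10% of all genes in each direction. Their median log2 fold change was -0.20. Promoters of many such genes carry the ER stress element, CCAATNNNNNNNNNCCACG, which is read by the factor NF-Y together with ATF6 or XBP1. These exact letters, on either strand, were found in 0.160% of the 9370 tested genes with a RefSeq promoter window of 250 bases before and 50 after a transcription start (0.125% of 12001 windows). That is 15 genes, of which 7 were among the 21 ER chaperone genes with a window: Hspa5, Hsp90b1, Calr, Pdia6, Canx, Creld2 and Dnajc3. Of all 15, 4 were called, each lower: Hsp90b1, Calr, Pdia6 and Acacb, the last of these an enzyme of fatty acid metabolism. The 250 bases before the start are shown for Hspa5, the defining gene of the list, and for the 3 called chaperones, 5′ to 3′ on the strand of the gene, with the element in capitals. A match describes these letters and was not tested for binding.
Hspa5: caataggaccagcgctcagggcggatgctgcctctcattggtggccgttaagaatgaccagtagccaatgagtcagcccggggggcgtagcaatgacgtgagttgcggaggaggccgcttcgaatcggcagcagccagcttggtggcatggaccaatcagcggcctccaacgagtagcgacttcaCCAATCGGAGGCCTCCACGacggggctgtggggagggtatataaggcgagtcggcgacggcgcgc
Hsp90b1: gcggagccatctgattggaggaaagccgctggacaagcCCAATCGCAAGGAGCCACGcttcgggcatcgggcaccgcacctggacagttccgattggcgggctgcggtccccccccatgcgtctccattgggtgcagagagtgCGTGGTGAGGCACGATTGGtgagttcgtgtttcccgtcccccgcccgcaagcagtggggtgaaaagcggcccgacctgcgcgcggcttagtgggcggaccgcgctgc
Calr: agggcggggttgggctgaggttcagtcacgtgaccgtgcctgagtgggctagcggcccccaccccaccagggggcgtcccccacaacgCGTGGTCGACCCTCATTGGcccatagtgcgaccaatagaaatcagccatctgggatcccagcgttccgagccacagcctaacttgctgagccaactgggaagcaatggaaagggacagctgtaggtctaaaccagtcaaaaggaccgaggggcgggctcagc
Pdia6: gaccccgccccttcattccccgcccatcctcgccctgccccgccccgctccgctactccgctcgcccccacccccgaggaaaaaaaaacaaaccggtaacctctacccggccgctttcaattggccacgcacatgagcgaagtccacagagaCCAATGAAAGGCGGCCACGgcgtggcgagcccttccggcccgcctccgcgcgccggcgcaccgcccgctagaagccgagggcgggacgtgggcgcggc
The windows are chr2:34771840-34772089 (plus strand), chr10:86705445-86705694 (minus), chr8:84846932-84847181 (minus) and chr12:17266339-17266588 (plus) of GRCm38.p6. Hsp90b1 has 2 copies, 1 in each orientation, and the others have 1.

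Of these 4 genes, 3 fell. Calr, the calcium-binding lectin chaperone calreticulin, fell from 661, 559, 585 and 637 CPM in vehicle 1 to 4 to 456, 484, 450.4 and 489 CPM in ISRIB 1 to 4 (-0.38, SE 0.059, adjusted p 0.00359). Hsp90b1, the HSP90 of the ER, fell from 710.2, 642, 707 and 726 to 529.5, 565, 567 and 559 CPM (-0.33, SE 0.053, adjusted p 0.00469). Pdia6, a disulphide isomerase, fell from 502, 448, 469 and 493 to 378, 389, 373 and 389 CPM (-0.32, SE 0.051, adjusted p 0.00386). For each of these 3 genes every ISRIB library lay below every vehicle library, and the call held without each of the 8 libraries. Hspa5, the central ER chaperone BiP, stood at 782, 668, 747 and 797 CPM in vehicle and 587, 632, 600.3 and 749.8 CPM in ISRIB libraries (-0.22, SE 0.074, adjusted p 0.141). ISRIB 4 lay within the vehicle range of Hspa5, and the gene passed without that library (adjusted p 0.0325).

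The other 7 called folding genes that fell have varied roles. Hyou1, the large HSP70-like exchange factor for BiP, fell from 242, 183, 224 and 224 to 158, 161, 157 and 181 CPM (-0.41, adjusted p 0.00952), again with ISRIB 4 nearest to the vehicle range. Uggt1, which tags misfolded glycoproteins for another folding round, fell from 125, 119.8, 123 and 125 to 96.03, 105, 104 and 107 CPM (-0.26, adjusted p 0.0147). The isomerases Pdia3 (-0.22, adjusted p 0.0338) and P4hb (-0.19, 0.04597), the BiP cofactors Dnajb11 (-0.26, 0.0436) and Sdf2l1 (-0.61, 0.03701) and the prolyl isomerase Fkbp2 (-0.28, 0.0382) also fell. Without overlap but not called were Pdia5 at -0.65 (0.0645) and the lectin chaperone Canx at -0.18 (0.0867). For 15 of the 28 all ISRIB libraries were lower than all vehicle libraries and in none were they all higher, against 4.39% and 4.26% of all genes. The list scored -0.098 to 0.067 in vehicle libraries and -0.22 to -0.091 in ISRIB libraries, so that ISRIB 4 overlapped vehicle 2. Hyou1 kept its call without each library. The Uggt1 call was lost without vehicle 1 (adjusted p 0.0556), Pdia3 without vehicle 1, 2 or 4 or ISRIB 1, 2, 3 or 4 (adjusted p 0.05196 to 0.127) and P4hb without any 1 of the 8 libraries (adjusted p 0.0616 to 0.162). Dnajb11 was lost without vehicle 1, 2, 3 or 4 or ISRIB 1, 2 or 3 (adjusted p 0.0545 to 0.148), Sdf2l1 without vehicle 1, 2 or 4 or ISRIB 1 or 3 (adjusted p 0.0582 to 0.128) and Fkbp2 without vehicle 1, 3 or 4 or ISRIB 2, 3 or 4 (adjusted p 0.0629 to 0.106). The list had 4 calls without vehicle 1, 6 without vehicle 2, vehicle 4 or ISRIB 1, 5 without ISRIB 3, 10 without ISRIB 2 and 4 and 5 without ISRIB 1 and 3. Its median stayed between -0.23 and -0.17 in these fits.

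The machinery that brings proteins into the ER and modifies them moved by smaller steps in the same direction. Of 23 tested genes of the translocon, the signal peptidase and the oligosaccharyltransferase, 21 had lower values and 7 were called, all lower, against 1.10% of all genes (median -0.12). In 14 of the 23, every ISRIB library lay below every vehicle library, and in none above, against 4.39% and 4.26% of all genes. Ddost, a subunit of the oligosaccharyltransferase that attaches N-glycans, fell from 243, 220.3, 229 and 234 to 199, 188, 194 and 196 CPM (-0.25, adjusted p 0.0146). Spcs2, a subunit of the signal peptidase, fell from 198, 183, 197 and 211 to 167, 166, 166 and 162 CPM (-0.25, 0.01701), and within each group its libraries differed little. The other called members were the glycosylation subunits Rpn1 (-0.24) and Rpn2 (-0.27), the peptidase subunit Spcs3 (-0.29), the translocon subunit Sec61b (-0.27) and the translocon-associated Ssr1 (-0.22), with adjusted p from 0.0181 to 0.0487. The pore itself, Sec61a1, stood at 303, 286, 292 and 312 and 257, 255, 255 and 274 CPM (-0.20) and just missed the threshold (0.05401). Chosen after their values were seen, 3 more called genes have the same role. The translocating-chain protein Tram1 fell from 247 ± 16.4 to 211 ± 8.56 CPM (0.0423), and the glycosylation subunits Ostc and Magt1 from 79.6 ± 4.73 to 65.8 ± 2.18 (0.0201) and from 126 ± 6.64 to 102 ± 6.25 CPM (0.0116). None of the 7 calls held without vehicle 1, where 1566 genes had an unadjusted p under 0.05. The number was 3 without vehicle 2, ISRIB 2 or ISRIB 4, 4 without vehicle 4 or ISRIB 3, 1 without ISRIB 2 and 4 and 4 without ISRIB 1 and 3. Without vehicle 1 the adjusted p was 0.0607 for Ddost and 0.0587 for Spcs2, both of which held without each of the other libraries. Both were lost without ISRIB 2 and 4 (0.0738 and 0.0822). Rpn1 was lost without vehicle 1 or ISRIB 3 (adjusted p 0.0519 to 0.0776), Rpn2 without vehicle 1 or 2 or ISRIB 2 or 4 (adjusted p 0.0506 to 0.0677) and Spcs3 without vehicle 1, 2 or 4 or ISRIB 1, 2 or 4 (adjusted p 0.0517 to 0.0658). Sec61b was lost without vehicle 1, 2 or 4 or ISRIB 1, 2, 3 or 4 (adjusted p 0.0525 to 0.139) and Ssr1 without vehicle 1, 2, 3 or 4 or ISRIB 2, 3 or 4 (adjusted p 0.0607 to 0.123). Tram1 was lost without any 1 of the 8 libraries (adjusted p 0.0582 to 0.124), Ostc without vehicle 1 or ISRIB 3 (adjusted p 0.0535 to 0.05404) and Magt1 held without each library but not without ISRIB 2 and 4 (0.0925).

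Not every ER gene was lower. Dnajb9, a BiP cofactor, rose from 56.8, 54.5, 68.8 and 82.4 to 92.7, 76.2, 98.4 and 88.8 CPM (0.44, SE 0.11, adjusted p 0.0373), although vehicle 4 exceeded ISRIB 2. Herpud1, which scaffolds the complex that moves misfolded proteins out of the ER for degradation, rose from 207, 226, 283 and 253 to 319.7, 297, 318 and 302 CPM (0.35, 0.0213), with no overlap. ER-associated degradation as a list had 13 of 23 members higher and 10 lower, a median of 0.019 and 2 calls, Herpud1 up and Sdf2l1 down. The share called among all genes was 1.10% in each direction. Edem3, which trims mannose from misfolded glycoproteins, stood at 80.3 ± 8.13 and 96.7 ± 8.72 CPM (0.08098). Of 13 ER stress sensors and ER stress transcription factors 0 were called by edgeR and 2 by DESeq2, with 5 at an unadjusted p under 0.05. Among them Xbp1, whose spliced mRNA encodes an activator of ER chaperone genes, stood at 179.5, 169, 181 and 163 and 146, 144, 154 and 162 CPM (-0.19, 0.0833). Gene-level counts do not separate its spliced and unspliced forms. The Dnajb9 call was lost without vehicle 1, 2 or 3 or ISRIB 1, 3 or 4 (adjusted p 0.0551 to 0.133) and the Herpud1 call without vehicle 1 or 2 or ISRIB 3 (adjusted p 0.0519 to 0.08201).

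**Figure D3:**
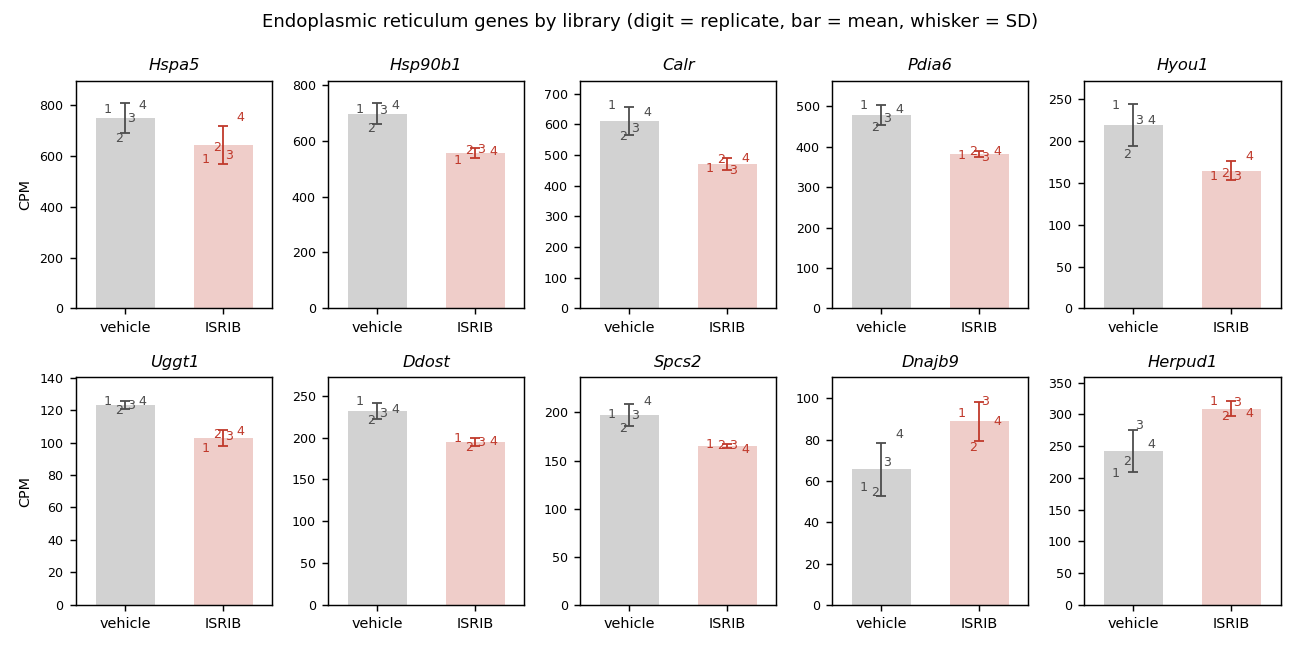
Level in CPM of 10 ER genes in each library; digits are the replicate numbers, bars the mean of 4 libraries and whiskers the SD. Calr, Hsp90b1, Pdia6, Hyou1, Uggt1, Ddost and Spcs2 lie lower in all ISRIB libraries, Hspa5 overlaps through ISRIB 4, and Dnajb9 and Herpud1 are higher.

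Cytosolic heat shock genes gave the largest rises of the whole comparison. Heat shock proteins fold and refold proteins of the cytosol and nucleus, and their stress-induced members are transcribed by HSF1 from heat shock elements, which are alternating repeats of GAA and TTC spaced by any 2 bases. Of 31 tested members, 9 were called, all higher, against 1.10% of all genes, while the list median was 0.13. The inverted pair GAANNTTC, a palindrome that is part of such an element, was present in the windows of 10 of the 25 members with a window, and in 6.73% of the 9370 genes. Among the 9 called members it was found in Hspa1a, Hspa1b, Hsph1, Dnaja1, Chordc1 and Bag3, and members without a window were not searched. The longer run GAANNTTCNNGAA or its complement occurred in 0.523% of genes, and within the list in Hsph1, Chordc1 and Dnajb6, the last of these not called. The 250 bases before the start are shown for Hspa1b, the largest rise, and Dnaja1, with the pair in capitals, and sites of 30 bases at the start of Hsph1 and Chordc1 with the longer run in capitals. Dnaja1 has 3 RefSeq windows, of which only the 1 shown holds the pair.
Hspa1b: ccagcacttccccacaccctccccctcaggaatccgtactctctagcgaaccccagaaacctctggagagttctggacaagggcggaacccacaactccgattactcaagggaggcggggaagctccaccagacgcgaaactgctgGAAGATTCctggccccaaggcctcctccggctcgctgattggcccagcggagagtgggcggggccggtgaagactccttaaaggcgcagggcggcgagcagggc
Dnaja1: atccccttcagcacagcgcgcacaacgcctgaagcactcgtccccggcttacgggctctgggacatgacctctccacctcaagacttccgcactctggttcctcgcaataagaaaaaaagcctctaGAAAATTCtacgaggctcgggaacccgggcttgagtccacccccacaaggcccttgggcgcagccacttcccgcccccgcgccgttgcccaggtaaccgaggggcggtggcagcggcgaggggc
Hsph1: tgctgcagaTTCTGGAAAGTTCtcctcagt
Chordc1: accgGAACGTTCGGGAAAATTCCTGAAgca
The windows are chr17:34959239-34959488 (minus strand), chr4:40722218-40722467 (plus), chr5:149636280-149636309 (minus) and chr9:18292259-18292288 (plus) of GRCm38.p6, from RefSeq starts. In Chordc1, 3 matches to the longer run overlap. The same 250 bases of Hspa1a are identical to those of Hspa1b at 247 positions, and the 2 genes are near-identical copies, so that reads may be shared between them.

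The heat shock genes rose unevenly among the ISRIB libraries. Hspa1b, an inducible HSP70 (ENSMUSG00000090877, chr17:34956436-34959238), was measured at 3.86, 3.62, 5.97 and 20.9 CPM in vehicle 1 to 4 and 45.4, 11.1, 94.99 and 67.4 CPM in ISRIB 1 to 4 (2.71, SE 0.52, adjusted p 0.0129). For Hspa1a the values were 2.28, 4.25, 4.06 and 15.3 and 33.8, 5.61, 67.6 and 41.9 CPM (2.57, SE 0.54, adjusted p 0.0196). In both genes vehicle 4 stood above the other vehicle libraries and above ISRIB 2, while ISRIB 1, 3 and 4 exceeded every vehicle library. The HSP110 gene Hsph1, which releases ADP from HSP70, rose from 20.95, 18.8, 26.2 and 24.6 to 40.9, 32.04, 72.5 and 64.8 CPM (1.20, SE 0.19, adjusted p 0.00479), without overlap. Chordc1, a partner of HSP90, rose from 37, 37.2, 41.1 and 48.4 to 53.6, 53.1, 77.8 and 85.7 CPM (0.72, 0.0121), also without overlap. ISRIB 3 and 4 were the highest libraries for Hsph1 and Chordc1. The HSP40 genes Dnaja1 and Dnajb1 bring clients to HSP70. Dnaja1 rose from 67.9, 69.5, 70.3 and 99.9 to 129.7, 96.8, 174 and 170.2 CPM (0.89, 0.00664) and Dnajb1 from 47.7, 51.01, 47.7 and 74.5 to 92.7, 60.2, 112 and 90.9 CPM (0.69, 0.0255). Vehicle 4 overlapped ISRIB 2 in each of them.

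Among the abundant members, Hspa8, the constitutive HSP70, rose from 482 ± 58.8 to 641 ± 103 CPM (adjusted p 0.0373). Bag3, an HSP70 cochaperone of selective autophagy, rose from 61.7 ± 5.07 to 81.2 ± 10.3 CPM (0.0195) and Cacybp from 33.4 ± 4.21 to 49.1 ± 10.5 CPM (0.0286). Hsp90aa1, the inducible HSP90, stood at 221 ± 19.7 and 270 ± 40.1 CPM (0.103), and Hsf1 itself at 24.1 ± 0.548 and 22.8 ± 1.52 CPM (0.687). Dnaja4, an HSP40 gene outside the list and chosen after its value was seen, rose from 31.7 ± 4.54 to 43.8 ± 2.04 CPM (0.0129). The list scored -0.11 to 0.15 in vehicle libraries, with vehicle 4 highest, and 0.35, 0.064, 0.56 and 0.46 in ISRIB 1 to 4. In 3 of the 31 members all ISRIB libraries lay above the vehicle libraries, against 4.26% of all genes, and in none below. Of 13 mitochondrial chaperones and proteases, 8 CCT chaperonin subunits and 34 proteasome genes, 0 were called by edgeR or DESeq2, with 0, 2 and 2 at an unadjusted p under 0.05. Hsph1 and Dnaja1 kept their calls without each library. The Hspa1a call was lost without vehicle 1, 2 or 3 or ISRIB 3 (adjusted p 0.0535 to 0.0769), and under DESeq2 (0.0592). Hspa1b was lost without vehicle 1 or 2 (adjusted p 0.0524 to 0.0562), Chordc1 without vehicle 2 (adjusted p 0.0516), Bag3 without vehicle 1 or 2 or ISRIB 3 or 4 (adjusted p 0.0535 to 0.0775) and Cacybp without vehicle 1, 2 or 3 or ISRIB 3 or 4 (adjusted p 0.0511 to 0.105). Dnajb1 was lost without vehicle 1, 2 or 3 or ISRIB 1, 3 or 4 (adjusted p 0.0502 to 0.0963) and under DESeq2 (0.0792), and Hspa8 without vehicle 1, 2 or 4 or ISRIB 3 or 4 (adjusted p 0.0825 to 0.135) and under DESeq2 (0.0831). Dnaja4 was lost without vehicle 1 or 2 (adjusted p 0.0509 to 0.0517). The list had 3 calls without vehicle 1, 2 without vehicle 2, 4 without ISRIB 3, 5 without ISRIB 4, 9 without ISRIB 2 and 4 and 4 without ISRIB 1 and 3.

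**Figure D4:**
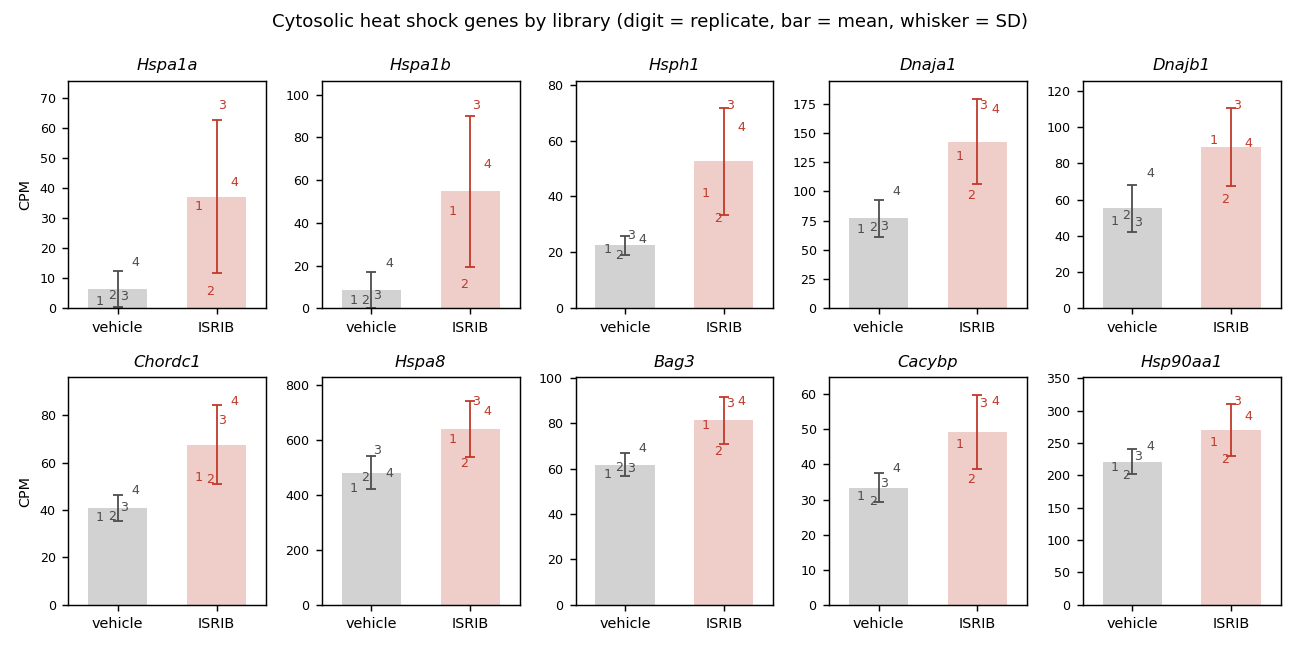
Level in CPM of 10 cytosolic heat shock genes in each library; digits are the replicate numbers, bars the mean of 4 libraries and whiskers the SD. ISRIB 2 is the lowest ISRIB library for each gene and vehicle 4 the highest vehicle library for each gene except Hsph1 and Hspa8.

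Immediate-early and feedback genes of growth factor signalling split in direction. Egr1, a zinc-finger factor induced within minutes by ERK, fell from 32, 31.4, 25.04 and 24.6 to 13.3, 15.3, 19.8 and 11.1 CPM (-0.93, SE 0.14, adjusted p 0.00309). Gadd45g, a stress and growth arrest gene, fell from 43.7, 47.3, 43.9 and 50.3 to 24.4, 29.7, 22.99 and 31.3 CPM (-0.77, 6.60e-04). Junb fell from 92.5, 110.1, 103 and 87.6 to 76.9, 74.1, 74.2 and 59.6 CPM (-0.47, 0.00817), whereas its relative Jun rose from 147, 175, 162 and 183 to 229.7, 188, 243 and 217 CPM (0.40, 0.0137). Groups did not overlap for any of these 4. The orphan nuclear receptor gene Nr4a3 rose from 1.32, 0.543, 0.852 and 1.16 to 2.81, 2.08, 3.67 and 4.12 CPM (1.70, 0.00961), from few counts. Srf, the factor that binds serum response elements, rose from 51.5 ± 1.65 to 64.4 ± 4.63 CPM (0.0147). Fos stood at 35.2 ± 1.51 and 30.7 ± 2.36 CPM (0.197). Lists of 11 AP-1 and 22 other early genes therefore held 3 calls up and 3 down, with medians of -0.0083 and 0.027. Over all genes tested, 1.10% were called in each direction. The cyclic AMP response element TGACGTCA was found for 1 of 18 members of the second list with a promoter window, Btg2, and for 3.71% of all tested genes with one. The Jun call was lost without vehicle 1 (adjusted p 0.0546) and the Srf call without vehicle 1 or 2 (adjusted p 0.0559 to 0.0582), and the other 4 held without each library. Jun was also lost without ISRIB 1 and 3 (0.0693) and Srf without ISRIB 2 and 4 (0.0925). DESeq2 gave no adjusted p for Nr4a3.

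Of 9 tested MAP kinase phosphatase genes, 2 were called higher and 1 lower, against 1.10% of all genes in each direction. Dusp6, a phosphatase that removes the activating phosphates of ERK and is itself induced by ERK, fell from 91.4, 86.9, 76.6 and 84.5 to 59.3, 56.1, 58.8 and 51.2 CPM (-0.59, SE 0.067, adjusted p 4.54e-04). Etv5, an ETS factor downstream of FGF that maintains AT2 cells, fell from 999, 992, 923 and 942 to 809.9, 797, 805 and 759 CPM (-0.28, 0.00817). They were the only 2 called of 17 tested FGF and ERK feedback genes, whose median was -0.054. Dusp8 and Dusp16, phosphatases that act mainly on JNK and p38, changed the other way. Dusp8 rose from 7.803, 8.14, 10.9 and 10.3 to 16.7, 17.2, 20.8 and 23.1 CPM (1.05, 8.92e-04) and Dusp16 from 98.02, 101, 103 and 124 to 132, 151, 162 and 168 CPM (0.53, 0.003196). In the EGF receptor family the ligand gene Hbegf fell from 14.3, 15.5, 14.4 and 14.9 to 7.98, 9.93, 10.6 and 9.74 CPM (-0.64, 0.00677) and the receptor gene Erbb3 from 257, 277, 285 and 239 to 236, 176, 222 and 173 CPM (-0.39, 0.0292). Lrig1, which lowers the amount of EGF receptors, rose from 28.2, 33.9, 36.3 and 28.6 to 45.7, 41.9, 41.7 and 47.7 CPM (0.47, 0.00961). No ISRIB library overlapped a vehicle library in these 7 genes. The Erbb3 call was lost without vehicle 1, 2 or 3 or ISRIB 2 or 4 (adjusted p 0.0685 to 0.0974); the other 6 held without each library.

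Both Socs3 and Pim1, well-known targets of STAT3, fell. Socs3, which blocks signalling from receptors of the IL-6 family, fell from 98.7, 133, 90.6 and 86.8 to 61.5, 58.2, 62.4 and 58.5 CPM (-0.76, SE 0.10, adjusted p 0.00121). The kinase gene Pim1 fell from 45.2, 59.8, 47.5 and 39.3 to 26.9, 29.2, 27.7 and 22.7 CPM (-0.85, 9.93e-04). Groups did not overlap in either gene, and vehicle 2 was the highest library. Stat3 itself stood at 312 ± 15.3 and 337 ± 22.7 CPM (0.353). Socs3 and Pim1 were the only calls among the 21 genes tested in this pathway, against 1.10% of all genes called lower. DESeq2 called 4 of the 21. The STAT site TTCCNGGAA was found for 1 of the 17 members with a promoter window, Cish, and for 1.55% of all tested genes with one. It was found for 0 of the called genes with such a window, Pim1 among them. Genes without a window, which may include Socs3, were not searched. Of 11 tested secreted acute-phase genes only haptoglobin, Hp, was called. It fell from 1047, 1044, 1059 and 1144 to 959.9, 792, 938 and 837 CPM (-0.28, 0.0255), a call lost without vehicle 1, 2 or 4 or ISRIB 2 or 4 (adjusted p 0.0599 to 0.0772). The list had 0 calls and a median of -0.10 without ISRIB 2 and 4, and 6 calls and a median of 0.21 without ISRIB 1 and 3, so that its direction turned with the pair left out.

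A few clock, glucocorticoid and FOXO genes were called, nearly all of them higher. The clock repressors Per1 and Per2 are also direct targets of the glucocorticoid receptor. Per1 rose from 48.8, 45.1, 53.03 and 64.04 to 77.6, 74.4, 74.4 and 59.1 CPM (0.44, adjusted p 0.0255), with ISRIB 4 below vehicle 4, and Per2 from 5.44, 3.62, 8.13 and 8.93 to 10.2, 12.8, 16.1 and 12.4 CPM (0.96, 0.0208). The other 11 of 13 tested genes of the PER, REV-ERB and PAR bZIP arm were not called (median -0.057). Among 7 clock activators and genes of their arm only Nfil3, a repressor, was called and rose from 29.3 ± 3.78 to 37.99 ± 2.21 CPM (0.03299). Of 21 glucocorticoid receptor and responsive genes, 17 had higher values and 3 were called, all higher, against 1.10% of all genes (median 0.14). Besides Per1 these were Zbtb16, from 12.2, 8.68, 11.6 and 8.83 to 15, 12.7, 15.4 and 20.7 CPM (0.0392), and Cebpd, from 75.3, 97.8, 80.2 and 92.7 to 108, 96.9, 127 and 114 CPM (0.0319). A standard marker of glucocorticoid action, Fkbp5, lay lower, at 6.05, 4.61, 6.49 and 4.95 and 2.24, 3.04, 3.399 and 4.65 CPM (-0.76, 0.0781). These calls were among the less stable. Per1 was lost without vehicle 1, 2 or 3 or ISRIB 1, 2 or 3 (adjusted p 0.0511 to 0.0951), Per2 without vehicle 1 or 2 or ISRIB 3 (adjusted p 0.0573 to 0.0787) and Nfil3 without vehicle 1 or 3 or ISRIB 3 or 4 (adjusted p 0.0775 to 0.103). Zbtb16 was lost without vehicle 1, 2 or 4 or ISRIB 1, 3 or 4 (adjusted p 0.0529 to 0.126) and Cebpd without vehicle 1 or 3 or ISRIB 3 or 4 (adjusted p 0.0775 to 0.1198). Fkbp5 passed without ISRIB 4 (0.0395).

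FOXO factors are held inactive by insulin and growth factor signalling and drive genes of stress resistance and catabolism. Foxo3 rose from 155, 159, 194 and 205 to 280.2, 292, 279 and 284 CPM (0.67, SE 0.076, adjusted p 4.54e-04), the lowest adjusted p of any gene, shared with Dusp6 and Srsf5. All ISRIB libraries lay above every vehicle library and close to each other. Foxo1 rose from 42.96, 46.04, 50.3 and 52.6 to 55.2, 65.4, 64.6 and 63.7 CPM (0.37, 0.0152) and Klf15, a metabolic factor, from 31.9 ± 4.75 to 44.1 ± 7.41 CPM (0.0456). Fbxo32, a ubiquitin ligase gene induced by FOXO in muscle, fell from 16.8, 21.9, 23.1 and 17.3 to 15.2, 12.2, 13.7 and 11.1 CPM (-0.60, 0.0181). The other 24 of 28 tested genes in this list were not called, and its median was 0.060. Over all genes tested, 2.20% were called. The list had 2 calls without ISRIB 2 and 4 and 6 without ISRIB 1 and 3, with medians of 0.074 and -0.0090. Foxo3 held without each library. Foxo1 was lost without vehicle 1 or 2 (adjusted p 0.0584 to 0.0617), Klf15 without vehicle 1, 2 or 4 or ISRIB 1, 3 or 4 (adjusted p 0.07695 to 0.155) and Fbxo32 without vehicle 2 or 3 or ISRIB 4 (adjusted p 0.0542 to 0.0676). Foxo1 (0.103) and Fbxo32 (0.140) were also lost without ISRIB 2 and 4, and Klf15 (0.297) without ISRIB 1 and 3.

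**Figure D5:**
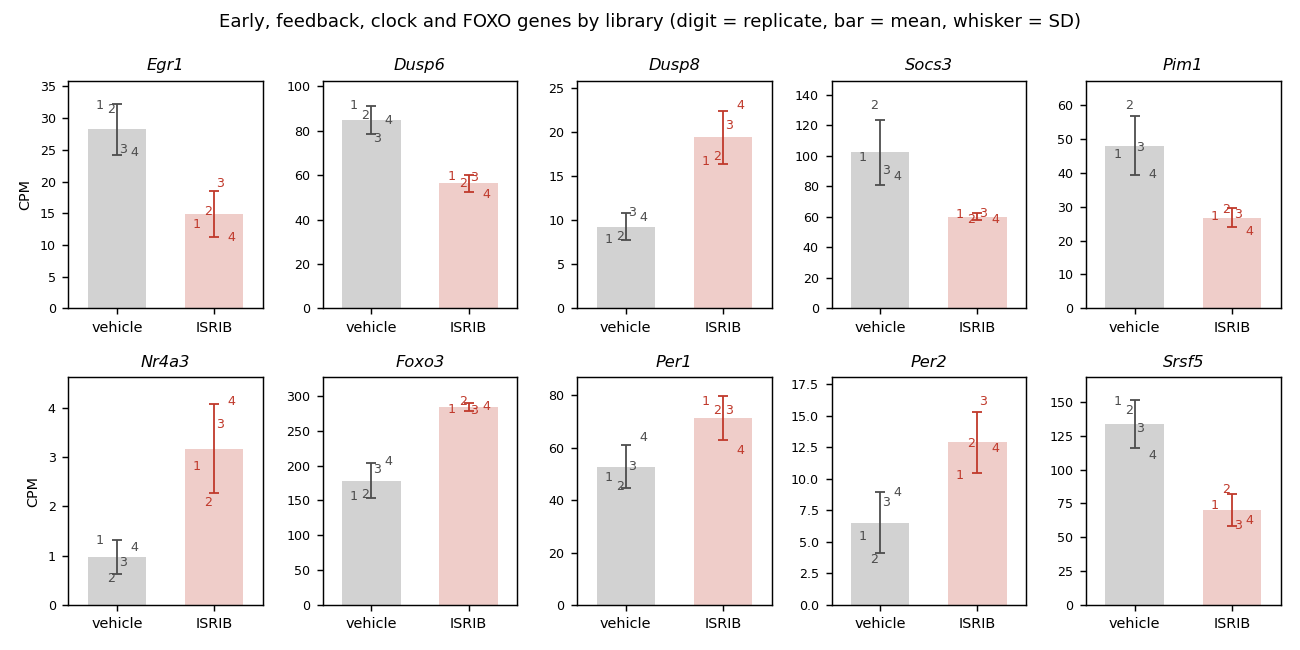
Level in CPM of 10 early, feedback, clock, FOXO and splicing factor genes in each library; digits are the replicate numbers, bars the mean of 4 libraries and whiskers the SD. Groups do not overlap for 9 of the 10 genes, and Per1 overlaps through vehicle 4 and ISRIB 4.

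Several genes that make fatty acids and the lipids of surfactant fell. AT2 cells synthesise fatty acids for the phosphatidylcholine of surfactant. Of 30 tested genes in this list, 21 had lower values, 7 were called lower and 1 higher, against 1.10% of all genes in each direction (median -0.12). Scd1, the desaturase that introduces a double bond into fatty acids (ENSMUSG00000037071, chr19:44394455-44407879), was among the most abundant mRNAs and fell from 24844, 28238, 30309.7 and 25977 to 21892, 20321, 23169 and 22461 CPM (-0.32, adjusted p 0.0176). Its relative Scd2 fell from 1945, 2154, 1906 and 2033 to 1790, 1469, 1811 and 1494 CPM (-0.29, 0.0386), and Acly, which supplies acetyl-CoA, from 1261, 1352, 1299.6 and 1363 to 1204, 1026, 1187 and 995 CPM (-0.26, 0.04304). For Scd2 and Acly, ISRIB 2 and 4 were lower than ISRIB 1 and 3. Gpam (-0.28, adjusted p 0.0147), which starts glycerolipid synthesis, the desaturase Fads2 (-0.39, 0.0319) and Acacb (-0.38, 0.0208) also fell. Fasn, the fatty acid synthase, stood at 6325, 6883, 6752 and 6679 and 6140.4, 5774, 5876 and 5962 CPM (-0.17), did not overlap and was not called (0.0996). It passed under DESeq2 (0.00816). The regulator Srebf1 stood at 419 ± 26.6 and 366 ± 34.2 CPM (0.146). The 2 lipin genes encode phosphatidate phosphatases and changed in opposite directions. Lpin1 fell from 41.8, 43.5, 44.1 and 42.01 to 36.8, 24.6, 32.7 and 24.7 CPM (-0.52, 0.0166), and Lpin2 rose from 253, 234, 316 and 306 to 365, 387, 378 and 407 CPM (0.47, 0.00671). Plin2, a lipid droplet protein chosen after its value was seen, rose from 176, 169, 185 and 211 to 216, 275, 242 and 320.2 CPM (0.51, 0.0131), highest in ISRIB 2 and 4.

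The score of the lipid list was lowest in ISRIB 2 and 4, though not each gene followed it. The list scored -0.035 to 0.015 in vehicle libraries and -0.019, -0.18, -0.069 and -0.17 in ISRIB 1 to 4, so that ISRIB 1 lay in the vehicle range. Without ISRIB 2 and 4 the list kept 3 calls and a median of -0.061, and without ISRIB 1 and 3 it had 13 calls and a median of -0.20. It had 1 call without vehicle 2. Scd1 was lost without vehicle 2 or 3 (adjusted p 0.0537 to 0.0713), Scd2 without vehicle 1, 2 or 4 or ISRIB 2 or 4 (adjusted p 0.0814 to 0.138), Acly without vehicle 1, 2, 3 or 4 or ISRIB 2 or 4 (adjusted p 0.0668 to 0.126) and Fads2 without vehicle 1, 2, 3 or 4 or ISRIB 2 or 4 (adjusted p 0.0573 to 0.0948). Acacb was lost without vehicle 2 or 4 or ISRIB 1 (adjusted p 0.0529 to 0.0599), Gpam without vehicle 2 (adjusted p 0.0582) and Lpin1 without vehicle 2 (adjusted p 0.0582). Lpin2 held without each library, and Plin2 was lost without vehicle 1 or 2 (adjusted p 0.052 to 0.05703). Without ISRIB 2 and 4, Scd2, Acly, Fads2, Gpam, Lpin1 and Plin2 were lost (adjusted p 0.0715 to 0.249). Acacb was lost without ISRIB 1 and 3 (0.0720). Cholesterol synthesis and uptake had 1 call in 26 genes, the sterol reductase gene Tm7sf2, which fell from 24.99, 33.5, 31.4 and 25.5 to 21.3, 15.1, 20.8 and 14.1 CPM (-0.69, 0.0129) and was lost without vehicle 2 (adjusted p 0.0517). Tm7sf2 was also lost without ISRIB 2 and 4 (0.0844). The median of the cholesterol list was 0.080 without ISRIB 2 and 4 and -0.12 without ISRIB 1 and 3.

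Few cell identity genes were called. Of 25 AT2 identity genes only Etv5, described above, was called, and the list median was -0.043. Without ISRIB 1 and 3, 7 AT2 genes were called. Of 20 type 1 genes 0 were called by edgeR and 1 by DESeq2, with 6 at an unadjusted p under 0.05 (median -0.078), and 4 were called without ISRIB 1 and 3. In bulk libraries, fewer cells of a type and less RNA of that type per cell cannot be told apart. Of 22 genes of the transitional state through which AT2 cells pass on the way to type 1 cells, 17 had lower values (median -0.17). Of the 22, 3 were called, all lower, against 1.10% of all genes. Krt19, a simple-epithelial keratin, fell from 69.4, 53.1, 56.6 and 57.1 to 42.3, 48.3, 40.9 and 47.1 CPM (-0.40, 0.01701). Sprr1a, a cross-linked envelope protein, fell from 16.1, 15.2, 15.6 and 11.9 to 8.49, 6.41, 10.02 and 11.8 CPM (-0.70, 0.0241), and the third was Hbegf. Krt8, the marker most used for this state, stood at 228, 184, 191 and 212 and 151, 179.5, 159 and 189 CPM (-0.26, 0.0883), with ISRIB 4 in the vehicle range. The list scored -0.050 to 0.10 in vehicle libraries and -0.25, -0.15, -0.27 and -0.056 in ISRIB 1 to 4. Krt19 was lost without vehicle 1 or ISRIB 3 (adjusted p 0.0519 to 0.0607) and Sprr1a without vehicle 1, 2 or 3 or ISRIB 1 (adjusted p 0.0573 to 0.0823). The list median was -0.26 without ISRIB 2 and 4 and -0.098 without ISRIB 1 and 3.

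Growth and death genes gave single calls. Of 38 DNA replication and mitosis genes, 31 had lower values and 1, the replicative helicase subunit Mcm6, was called lower, from 38.1, 34.1, 32.3 and 37.2 to 28.8, 26.8, 26.03 and 27.5 CPM (-0.37, 0.0155). Its partner Mcm5 stood at 16.8, 10.6, 7.41 and 13 and 6.39, 8.01, 6.89 and 6.93 CPM (0.05598) and passed without vehicle 3 (0.00797). This list varied widely within vehicle, from a score of -0.57 in vehicle 3 to 0.54 in vehicle 1. Its median of -0.20 became -0.60 without ISRIB 2 and 4, -0.038 without ISRIB 1 and 3, and -0.41 to -0.022 without single libraries. Id2, an inhibitor of basic helix-loop-helix factors and a BMP target, fell from 241, 264, 224 and 181 to 153, 162, 146 and 151 CPM (-0.57, 0.00309), and the ligand gene Bmp4 from 95.1, 93.2, 88.3 and 92.4 to 80.6, 74.4, 70.1 and 64.1 CPM (-0.35, 0.0129). They were the only calls among 26 TGF-beta and BMP genes, against 1.10% of all genes called lower, and groups did not overlap in either. Bmp4 did not pass without ISRIB 2 and 4 (0.0631). The proapoptotic gene Bmf fell from 112, 120.1, 133 and 87.3 to 90.6, 80.4, 77.2 and 72.2 CPM (-0.50, 0.0147), with vehicle 4 below ISRIB 1. Perp, a p53 target of cell junctions, fell from 46.7 ± 2.46 to 34.7 ± 5.78 CPM (0.0271), the only call among 23 p53 targets. Of 14 tested genes of the YAP pathway 11 had higher values, and 7 had an unadjusted p under 0.05 (median 0.15). Of the 14, 1 was called lower and 1 higher, against 1.10% of all genes in each direction. The target Nuak2 fell from 19.03 ± 2.89 to 11.96 ± 1.32 CPM (0.00817) and the inhibitory kinase gene Lats2 rose from 44.7 ± 2.95 to 57.8 ± 3.64 CPM (0.00968). Pfkfb4, a regulator of glycolysis, rose from 104 ± 6.26 to 124 ± 4.596 CPM (0.0208), the only call of 24 in its list. The Mcm6 call was lost without vehicle 1 (adjusted p 0.0677) and without ISRIB 2 and 4 (0.0821), Bmf without vehicle 2 (adjusted p 0.0582), Perp without vehicle 1, 2 or 4 or ISRIB 2 or 4 (adjusted p 0.0538 to 0.1001) and Pfkfb4 without vehicle 1, 2 or 3 or ISRIB 2 (adjusted p 0.0537 to 0.0869). Without ISRIB 2 and 4, Bmf (adjusted p 0.0936), Perp (0.170) and Pfkfb4 (0.117) were lost as well.

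The NF-kappaB, interferon, antigen presentation and chemokine lists gave no call with edgeR. Of 16 NF-kappaB genes 0 were called, 1 by DESeq2, and 8 had an unadjusted p under 0.05 (median -0.079). In 4 of the 16 all ISRIB libraries lay below all vehicle libraries and in 0 above, against 4.39% and 4.26% of all genes. The list had 2 calls without ISRIB 2 and 4 and 2 without ISRIB 1 and 3. Of 19 interferon-stimulated, 17 antigen presentation and 11 epithelial chemokine and cytokine genes, 0 were called by either tool, with 2, 3 and 1 at an unadjusted p under 0.05. Without ISRIB 1 and 3, 4 of the antigen presentation genes were called. Of 26 NRF2 targets 0 were called, 1 by DESeq2, with 4 at an unadjusted p under 0.05, and of 26 autophagy genes 0 by either tool, with 3. The macrophage gene Chil3 was called lower, from 0.964, 1.27, 1.18 and 1.55 to 0.192, 0.4004, 0.716 and 0.0877 CPM (0.04401), at few counts in each library, and was lost without vehicle 1, 2, 3 or 4 or ISRIB 1, 2 or 4 (adjusted p 0.0736 to 0.123).

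Of the genes with the largest changes, several belong to none of these groups. Srsf5, an SR protein of splicing, fell from 150.2, 144, 131 and 111 to 73.7, 85.6, 58.7 and 62.5 CPM (-0.93, SE 0.10, adjusted p 4.54e-04), and the call held without each library. Srsf6, of the same family, fell from 109.9 ± 7.63 to 88.7 ± 9.398 CPM (0.0321), and the other 16 genes of that list were not called. Irx1 and Irx2, neighbouring homeobox genes of the lung epithelium chosen after their values were seen, both rose. Irx1 (ENSMUSG00000060969, chr13:71957921-71963723) went from 588, 639, 665 and 798 to 921, 976, 991 and 923 CPM (0.50, 0.00309) and Irx2 from 234, 301, 270.2 and 287 to 353, 327, 380.1 and 311 CPM (0.33, 0.0292). Rgcc, a regulator of the cell cycle, rose from 45.1, 45.6, 61.4 and 107 to 110.1, 127, 113 and 114 CPM (0.85, 0.0217), with vehicle 4 just below the ISRIB range and the other vehicle libraries far below. Rab3c, a small GTPase of secretory vesicles, fell from 24.8, 13.02, 24.5 and 18.5 to 7.09, 7.53, 13.1 and 9.65 CPM (-1.14, 0.00725), and vehicle 2 lay just below ISRIB 3. Camk2b, a calcium-dependent kinase, fell from 4.38, 2.62, 6.23 and 9.41 to 3.001, 0.961, 0.537 and 2.11 CPM (0.0332), with overlap.

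The other rises picked by size had groups that did not overlap. They were Banp (0.95, adjusted p 0.00309), the protease inhibitor Spink5 (0.80, 0.00309), the methyl-CpG binding gene Mbd1 (0.79, 0.00212), Taf1c of RNA polymerase I initiation (0.76, 0.00961), the arrestin-like Arrdc4 (0.74, 0.0208), Trim65 (0.73, 0.00671), Cep76 (0.66, 0.0279) and Khdc4 (0.63, 0.00961). The other falls were the magnesium transporter Slc41a2 (-0.86, 0.00309), Inava (-0.82, 0.0241), the ligand Wnt3a (-0.75, 0.04304) and the semaphorin Sema4c (-0.65, 0.0303). For Wnt3a, ISRIB 2 and 4 at 5.37 and 5.62 CPM were lower than ISRIB 1 and 3 at 11.5 and 9.48 CPM, and the vehicle libraries lay between 12.4 and 14.5 CPM. Calls lost were Srsf6 without vehicle 1 or 2 or ISRIB 1 or 3 (adjusted p 0.0775 to 0.125), Irx2 without vehicle 1 or 3 or ISRIB 1 or 3 (adjusted p 0.0587 to 0.102), Rgcc without vehicle 1, 2 or 3 (adjusted p 0.0528 to 0.0784) and under DESeq2 (0.0859), and Camk2b without vehicle 1, 3 or 4 or ISRIB 2, 3 or 4 (adjusted p 0.0593 to 0.0978). Taf1c was lost without ISRIB 2 and 4 (0.0779). Arrdc4 was lost without vehicle 2 or ISRIB 2 or 4 (adjusted p 0.05196 to 0.0695), Cep76 without vehicle 1 or 3 or ISRIB 2, 3 or 4 (adjusted p 0.0681 to 0.1001) and Inava without vehicle 1 or 2 or ISRIB 3 or 4 (adjusted p 0.0514 to 0.0963). Wnt3a was lost without vehicle 1, 2, 3 or 4 or ISRIB 2, 3 or 4 (adjusted p 0.0525 to 0.12) and Sema4c without vehicle 1, 2 or 3 or ISRIB 1, 2, 3 or 4 (adjusted p 0.0587 to 0.0999). Whether counting used strand is not stated in the labels or notes used. Exons of Banp, Bmp4, Cebpb, Cebpd, Ddit3, Dnaja1, Dnaja4, Dnajb9, Dusp8, Eif2ak3, Eif2b4, Fbxo32, Foxo1, Hsp90b1, Hspa1a, Inava, Jun, Junb, Khdc4, Krt8, Lrig1, Pdia3, Pdia6, Pim1, Ppp1r15a, Rpn1, Rpn2, Sec61a1, Sema4c, Spcs3, Srebf1, Stat3 and Taf1c overlap those of a gene on the opposite strand, so that their levels are less certain.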

How the data were processed

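RNA from the sorted AT2 cells was isolated with the PicoPure kit and sequenced on a NextSeq after poly(A) selection and NEBNext Ultra library preparation, per the labels' protocols. The authors deposited raw counts of reads for each Ensembl gene, in 1 table of 8 columns, with no normalisation. The submitters' processing notes name bcl2fastq 2.19.1, FastQC, Trimmomatic 0.36, STAR 2.6.0, HTSeq 0.11.2 and the mm10 build. For the counting step, the strand setting and the annotation were not given in the sources used here. Symbols and positions were taken from GENCODE M21 (GRCm38), which matched 42462 of 43430 identifiers, and promoter sequences from RefSeq (GRCm38.p6).

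Genes passing edgeR's filterByExpr (minimum count 10, total 15) were tested with edgeR 4.0.16 in R 4.3.3, by the quasi-likelihood F test after TMM scaling with group as the only term. Benjamini-Hochberg adjustment ran over all 12054 tested genes, and an adjusted p under 0.05 is a call. All adjusted p-values are from this test unless DESeq2 (1.42.0) is named. Levels are CPM, edgeR's counts scaled to effective library size, errors are SD over 4 libraries, and a fold change is a log2 value, ISRIB minus vehicle, with its SE. The score of a list is the mean over tested members of log2(CPM + 0.5) relative to the vehicle mean. Named genes are the 15 largest called changes in each direction whose mean was 5 CPM or more and whose groups did not overlap, the members of the lists, and others marked as chosen after their values were seen. A few genes met by the rule are not reported here. The members and the lists were chosen with earlier results of these data known. The code was tested on simulated data with known changes. Alternatives were RLE scaling, DESeq2, no filter, a replicate block and leaving out each library, and, added after seeing the data, leaving out ISRIB 2 and 4 or ISRIB 1 and 3. Libraries of other protocols in the series were not analysed here. Genes under 5 CPM rest on few reads, which limits their precision.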

Additional observations from a re-analysis of the deposited data

Results flagged for a closer look

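In 364 groups of 4 libraries (genes named in the text and list scores), the highest or lowest library was checked for a gap to the others larger than Dixon's 95% limit. Chance alone passes about 1 in 20 groups, which is about as many as were found here. Among heat shock genes vehicle 4 stood apart above the other vehicle libraries, at 15.3 CPM for Hspa1a (others 2.28 to 4.25), 20.9 CPM for Hspa1b (3.62 to 5.97), 99.9 CPM for Dnaja1 (67.9 to 70.3) and 74.5 CPM for Dnajb1 (47.7 to 51.0). The acute-phase gene Hp was also highest in vehicle 4, at 1144 CPM against 1044 to 1059 CPM.

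In ER genes ISRIB 4 stood above the other ISRIB libraries, at 181 CPM for Hyou1 (others 157 to 161) and 274 CPM for Sec61a1 (255 to 257). The same library was low for Junb, at 59.6 CPM against 74.1 to 76.9 CPM, and for the clock activator list, with a score of -0.28 against 0.024 to 0.054. ISRIB 1 was low for Foxo1 (55.2 CPM, others 63.7 to 65.4), Acacb (23.1 CPM, others 27.9 to 28.2) and Cep76 (8.36 CPM, others 11.4 to 11.6). ISRIB 2 was low for Slc3a2, at 185 CPM against 226 to 231 CPM. Vehicle 1 was high for Mthfd2, at 4.03 CPM against 2.44 to 2.69 CPM, and low for the fatty acid list, with a score of -0.035 against 0.0080 to 0.015. The AP-1 list was high in vehicle 2, with a score of 0.10 against -0.048 to -0.023, and the list of CDK inhibitors and D cyclins low in vehicle 3, with -0.12 against 0.035 to 0.046.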

How the results depend on the processing

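The number of called genes, 265 (133 higher, 132 lower), was 268 with RLE scaling, 408 with DESeq2 (204 higher, 204 lower) and 648 with no filter on low counts (321 higher, 327 lower). Leaving out 1 library gave 86 to 269 calls, 39 to 146 higher and 47 to 123 lower. Without vehicle 1 they were 86 (39 higher, 47 lower), without vehicle 2 102 (49 and 53) and without ISRIB 4 159 (78 and 81). Without ISRIB 2 and 4 they were 151 (88 higher, 63 lower), and without ISRIB 1 and 3 478 (230 higher, 248 lower). Of the 265 genes, 254 were also called by DESeq2, 83 to 204 without 1 library, 114 without ISRIB 2 and 4 and 171 without ISRIB 1 and 3. Of the uncalled genes named in the text, 13 passed under DESeq2. ER genes among them were Sec61a1 (adjusted p 0.00697), Canx (0.0184), Pdia5 (0.0314), Xbp1 (0.0375) and Edem3 (0.0377). Fasn (0.00816), Mcm5 (0.00861), Krt8 (0.0369), Hsp90aa1 (0.0422) and Asns (0.0492) also passed, besides Atf4, Atf3 and Cth. Of the called genes named in the text, 41 no longer passed without ISRIB 2 and 4 and 32 without ISRIB 1 and 3. Not each of these losses is given beside its gene. The cause of these shifts was not tested, and fits without libraries have fewer samples. No called gene named in the text changed direction in any of these fits. Of the uncalled, Lyz1, Lamb1 and H2-Q7 turned to log2 fold changes of -0.071, -0.14 and -0.38 without ISRIB 2 and 4.

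Libraries of the same replicate number did not deviate together, with correlations of -0.11, 0.014, 0.085 and 0.055 over genes, so the numbers were not taken as pairs. A fit with the replicate block gave 277 calls (150 higher, 127 lower), 234 of them among the 265. With that block P4hb (adjusted p 0.0710), Dnajb11 (0.0520), Sec61b (0.0702), Ssr1 (0.0530), Tram1 (0.0705), Scd2 (0.0622), Acly (0.0638) and Chil3 (0.0705) no longer passed, while Atf4 (0.0315), Nupr1 (0.0221), Cth (0.0347) and Hsp90aa1 (0.0206) passed, and the ATF4 and CHOP list had 3 calls. Depth limits genes of few counts, such as Nr4a3, Chil3 and Camk2b. DESeq2 gave no adjusted p for any of these, nor for Mthfd2 or Fkbp5.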

Other observations

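Several genes were split by the pairs of ISRIB libraries. The lysozyme gene Lyz1, made by AT2 cells and macrophages, stood at 2335, 2119, 1972 and 2088 CPM in vehicle 1 to 4 and 2017, 3564, 2029.8 and 3946 CPM in ISRIB 1 to 4. The laminin gene Lamb1 stood at 6.84, 6.15, 5.51 and 6.598 and 5.75, 26.9, 5.55 and 25.5 CPM, and the class I histocompatibility gene H2-Q7 at 5.44, 8.86, 7.34 and 5.14 and 5.43, 17.4, 4.83 and 15.2 CPM. All 3 were high in ISRIB 2 and 4 and in the vehicle range in ISRIB 1 and 3, except that H2-Q7 in ISRIB 3 lay just below that range. The complement gene C4b had the other order, at 4.74, 5.97, 4.85 and 4.46 and 8.62, 4.97, 15.7 and 5.703 CPM, with ISRIB 1 and 3 highest. These genes were chosen after their values were seen, and none is called between the groups in the main test. With no filter on low counts each of them passed, with adjusted p from 1.26e-20 (Lamb1) to 5.32e-04 (H2-Q7). What sets the pairs apart was not tested.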
